A study of Mus musculus with 3 samples.

Results

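Deiters and pillar cells are the supporting cells that stand between and around the outer hair cells of the cochlea. Deiters cells cup the bases of the outer hair cells and hold their tops with stiff processes, pillar cells frame the tunnel of Corti, and both are packed with bundles of microtubules. They are known to depend on FGF and Notch signals while they form, to pass potassium away from the hair cells through gap junctions, and to secrete part of the tectorial membrane. Here such cells were sought in single-cell RNA-seq libraries of the mouse cochlea by their markers. Members were chosen by the measured UMIs of marker genes. A cell barcode was taken as a member when it held 200 to 6000 genes, at most 15% mitochondrial UMIs (unique molecular identifiers, each standing for 1 captured RNA molecule), a UMI of at least 3 of the 7 genes Ceacam16, Otol1, Npy, Fgfr3, Prox1, Rbp7 and Slitrk6, and less than 0.5% of its UMIs from Ocm, the outer hair cell gene for oncomodulin. This rule found 289 members among the 14378 barcodes that passed the gene and mitochondrial limits, out of 32657 barcodes in the files.

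The 3 libraries came from mice whose strain the labels give as C57/B6 and the study's methods as C57BL/6J, with no treatment or transgene named in the labels. One was made at postnatal day 14 (P14), after the onset of hearing, and 2 (replicates 1 and 2) at P28, when the cochlea is mature. Each pooled the dissociated cochlear tissue of 7 mice (14 cochleae), without sorting, so a library is a pool of animals and the unit of replication. The tissue was the coiled epithelium lifted off the modiolus, mostly from the upper basal to the apical turn, and by the study's methods it also held cells of the stria and of the Reissner membrane, spiral ganglion neurons and others.

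The label was borne out only in part. Members with Fgfr3, the FGF receptor of pillar and Deiters cells, and members with Otol1, the gene for otolin-1, differed in transcripts that the rule did not use. They are therefore called members, Fgfr3 members and Otol1 members below, after the rule that found them, and values are given in the order P14, P28 replicate 1, P28 replicate 2.

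The members numbered 59, 133 and 97 in the 3 libraries. These were 3.55% of 1662 passing barcodes at P14 (exact binomial 95% interval 2.71 to 4.56), 2.35% of 5651 in P28 replicate 1 (1.97 to 2.78) and 1.37% of 7065 in P28 replicate 2 (1.12 to 1.67). The rule reads single UMIs, so the share moved with depth: the median member held 8524, 7985 and 5145 UMIs, against 2404, 2363 and 2018 in the other passing barcodes. When every barcode was thinned to 1000 UMIs before the rule was applied, 1.00%, 0.273% and 0.331% were members. In all, the members held 574425, 1207284 and 597438 UMIs, so 3 UMIs in their sum correspond to 5.22, 2.48 and 5.02 CPM (UMIs of a gene scaled to 1000000 UMIs of the sum), and intervals below cover counting error only. No member barcode occurred as a member in another library, although 10, 20 and 54 barcodes were shared between pairs of libraries, and 2 members had the barcode of a non-member in the other P28 library. Doublets were not removed, and 30, 63 and 27 members had more than 3000 genes.

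The P14 and P28 libraries also differed in sex-linked transcripts. Xist, which is transcribed from the inactive X chromosome of females, stood at 339, 0 and 3.35 CPM in members and 402, 0.257 and 0.264 CPM in the other barcodes. The Y-linked gene Ddx3y was found in all of them, at 17.4, 82.0 and 85.4 CPM in members. The labels do not give the sex of the pooled mice, and with 1 library at P14 age, sex and library cannot be told apart.

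The genes of the rule are given as a description, since they chose the members. Ceacam16, which encodes a protein of the tectorial membrane, stood at 1358, 1814 and 2208 CPM in members and 121, 389.6 and 466 CPM in the other barcodes. Slitrk6, a membrane protein gene that supporting cells express, stood at 444, 398 and 454 CPM against 27.4, 44.4 and 42.8 CPM. These were the commonest of the 7 genes, with a UMI in 86.4, 98.5 and 95.9% of members for Ceacam16 and 86.4, 93.2 and 89.7% for Slitrk6. Rbp7, a retinol-binding protein gene, was high at P14 and lower in both P28 libraries, at 839, 219.5 and 213 CPM against 4.37, 4.87 and 5.55 CPM in the other barcodes. Otol1 also stood highest at P14, at 258, 23.2 and 45.2 CPM. Fgfr3 differed less between the libraries, at 179, 132 and 132 CPM in members and 6.42, 8.29 and 9.03 CPM in the others. Npy, which encodes a neuropeptide, was low, at 1.74, 4.14 and 28.5 CPM in members and 3.35, 10.4 and 10.3 CPM in the others. Prox1, a transcription factor gene that supporting cells and type II neurons express, stood in members at 34.8, 26.5 and 33.5 CPM, and at P28 that was no more than in the other barcodes (1.31, 32.8 and 35.9 CPM).

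**Figure D1:**
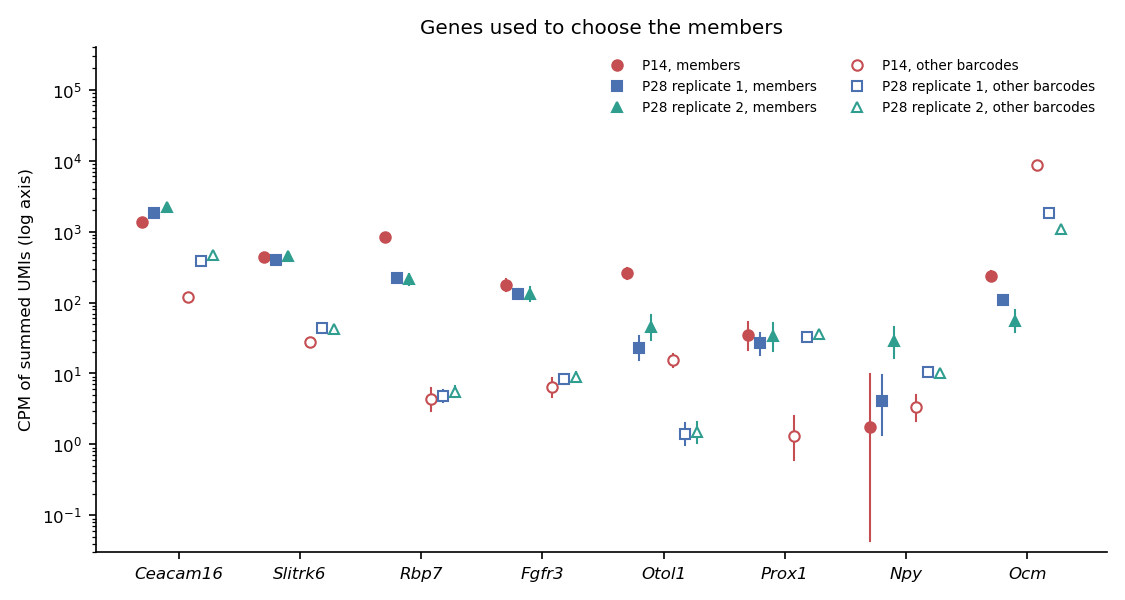
CPM of summed UMIs (log axis) of the 7 marker genes and of Ocm, with exact Poisson 95% intervals, in members (filled) and all other passing barcodes (open) of each library. Ceacam16, Slitrk6, Rbp7, Fgfr3 and Otol1 lie higher in members in each library, whereas Prox1 does so at P14 alone and Npy in P28 replicate 2 alone.

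A member could meet the rule in different ways. At P14 the commonest combination was Ceacam16, Otol1, Rbp7 and Slitrk6 with 15 of 59 members, followed by Ceacam16, Otol1 and Slitrk6 with 12. At P28 it was Ceacam16, Rbp7 and Slitrk6, with 42 of 133 members in replicate 1 and 29 of 97 in replicate 2. Exactly 3 markers were present in 32, 97 and 75 members, and none had more than 5. Just outside the rule, 45, 362 and 415 barcodes had exactly 2. Their Ceacam16 level was 399.9, 986 and 1064 CPM, against 719, 1292 and 1479 CPM in the members with exactly 3, and their Fgfr3 level 61.1, 30.1 and 30.7 CPM against 128, 52.1 and 58.3 CPM. A further 2, 8 and 5 barcodes had 3 or more markers and were left out for their Ocm.

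The members are described here by Fgfr3 and Otol1. Fgfr3 without Otol1 was found in 19, 60 and 34 members, Otol1 without Fgfr3 in 34, 24 and 19, both in 2, 0 and 2, and neither in 4, 49 and 42. The Otol1 members were thus 57.6% of the members at P14 but 18.0% and 19.6% at P28. Otol1 itself was lower at P28, at 258, 23.2 and 45.2 CPM in members. The share rests on detection of this 1 gene, so a change in the kinds of cell cannot be read from it. Both genes belong to the rule and most members held exactly 3 markers, so that few held both follows in part from the rule and nothing is read from it. The split and the genes named for it were chosen after the values were seen and are given without a test. Apart from Vim, a gene of the fixed lists, the genes named are among the 12 on each side with the largest ratio in the library where it was smallest, at 100 CPM or more.

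Fgfr3 members carried Fabp3, a gene for a fatty acid-binding protein, at 3795, 1758 and 1694 CPM, whereas Otol1 members had 51.9, 61.8 and 45.9 CPM. Clu, the gene of the secreted chaperone clusterin, stood at 7143, 3110.2 and 3879 CPM in Fgfr3 members and 697, 452 and 459 CPM in Otol1 members. Mgst1, a glutathione transferase gene, was at 633, 276 and 288 CPM against 59.3, 27.0 and 27.6 CPM. Emx2, a homeobox gene of the developing organ of Corti, followed the same pattern at lower levels, 172, 94.4 and 86.4 CPM against 0, 11.6 and 9.19 CPM. Vim, the gene of the intermediate filament vimentin, was also higher in Fgfr3 members, 309, 842 and 763 CPM against 74.1, 228 and 175 CPM. Each of these 5 genes was higher in Fgfr3 members than in Otol1 members of the same library, in all 3 libraries. Apart from Vim they were picked by their smallest ratio over the libraries, so this was set by the choice and nothing is read from it. Mgst1 was not particular to Fgfr3 members: barcodes with Aqp4 and Epcam, compared below, had 283, 294 and 239 CPM. Fabp3, Clu and Emx2 were lower there than in Fgfr3 members in each library.

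Of the 12 genes on the side of the Otol1 members, Slc17a8, Otof and Calb2 belong to the inner hair cell list. Slc17a8, the gene of a vesicular glutamate transporter of inner hair cells, stood at 341, 695 and 349 CPM in Otol1 members and 0, 81.7 and 4.80 CPM in Fgfr3 members. Kncn, which is not on that list, was at 196, 339.7 and 156 CPM against 11.4, 47.2 and 4.80 CPM. Calb2, the calretinin gene, was at 659.9, 1533 and 937 CPM against 3.81, 283 and 24.0 CPM, and Otof is given with the other cell types. These are sums carried by few barcodes: 7 of 34, 8 of 24 and 3 of 19 Otol1 members had at least 2 genes of the inner hair cell list, 5 barcodes held 86.4%, 81.2% and 100% of its UMIs in these members, and the median Otol1 member had 0 UMIs of it in each library. Otol1 members also carried Slc1a3, the glutamate transporter of the supporting cells around the inner hair cells, at 789.6, 1559.6 and 1957 CPM, whereas Fgfr3 members had 7.63, 329 and 259 CPM. Gsn, the gene of the actin-severing protein gelsolin, stood at 3744, 807 and 909.7 CPM in Otol1 members and 3.81, 102 and 187 CPM in Fgfr3 members. Tbx2, a transcription factor gene of the inner part of the organ of Corti, was at 245, 471 and 478 CPM against 0, 59.9 and 9.60 CPM. Of the Otol1 members, 72 of 77 had a UMI of each of Slc1a3, Gjb6 and Epcam, and of the Fgfr3 members 29 of 113 did. Of the members with neither gene, 69 of 95 did. Members with neither gene stood nearer the Otol1 members in Slc1a3 (401, 1537 and 1405 CPM) and below the Fgfr3 members in Fabp3 (451, 194 and 219 CPM). In Clu (9978, 493 and 1015 CPM) and Mgst1 (652, 27.7 and 66.7 CPM) they were below the Fgfr3 members at P28. At P14, where there were only 4 of them, they were above the Fgfr3 members in Clu, and for Mgst1 the counting intervals overlapped.

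**Figure D2:**
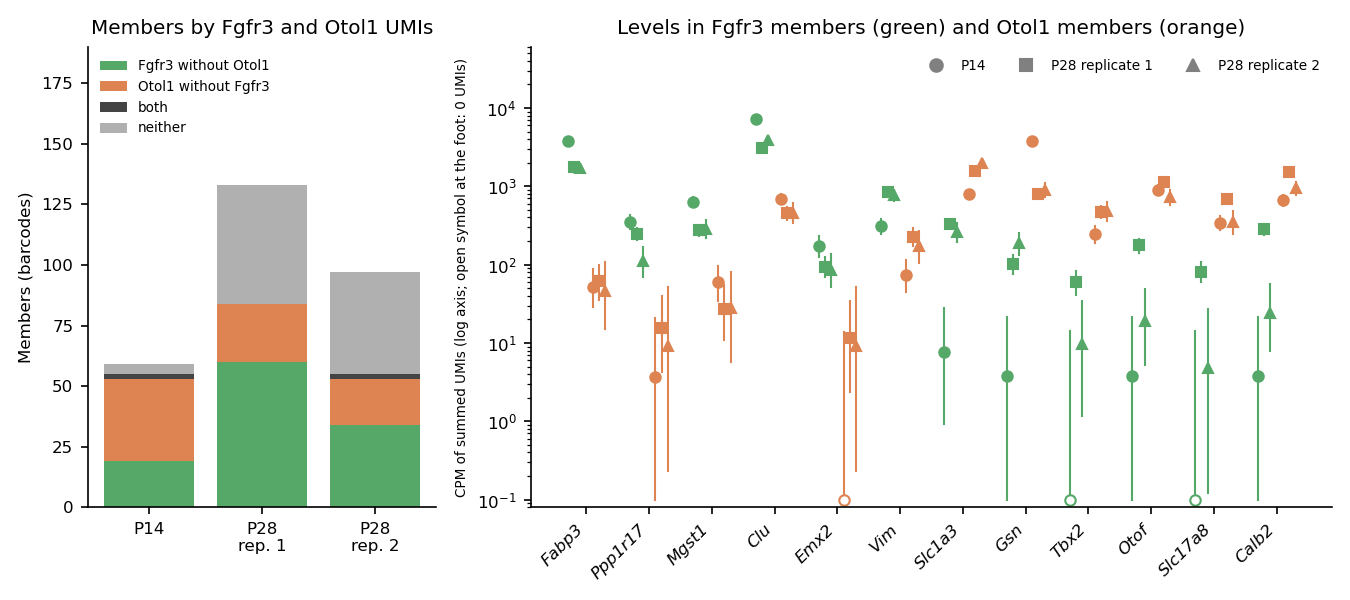
Left, number of members in each library by UMIs of Fgfr3 and Otol1 (stacked bars). Right, CPM of summed UMIs (log axis) with exact Poisson 95% intervals of 12 genes in Fgfr3 members (green) and Otol1 members (orange), with 1 symbol per library. Fabp3 to Vim lie higher in Fgfr3 members and Slc1a3 to Calb2 higher in Otol1 members in each library.

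Markers of other cell types were present in most members. At least 2 genes of 1 other cell type list were found in all but 14 of 59, 38 of 133 and 28 of 97 members. For the outer hair cell list alone this held for 37, 66 and 33 members, or 136 of 289, beside 479 of 1603, 1127 of 5518 and 829 of 6968 other barcodes, which were shallower, and 19 of 54, 170 of 361 and 110 of 353 barcodes with Slc1a3, Gjb6 and Epcam that were not members. The inner hair cell list (Otof, Slc17a8, Calb2 and Acbd7) summed to 1051, 1704 and 1148 CPM in members and 921, 1013 and 750.5 CPM in the other barcodes. Otof, the gene of otoferlin at the hair cell synapse, stood at 908, 1123 and 726 CPM in Otol1 members and 3.81, 176 and 19.2 CPM in Fgfr3 members. In the barcodes with Slc1a3, Gjb6 and Epcam that were not members, Otof stood at 260, 694 and 672 CPM and Slc17a8 at 137, 407 and 433 CPM. At least 2 genes of the list were found in 10, 24 and 9 members, and 5 barcodes held 82.3%, 40.6% and 61.1% of its UMIs. The outer hair cell list summed to 2455, 1976 and 1208 CPM, against 7662, 3386 and 2089 CPM in the other barcodes, of which Pcp4 gave the largest part, while Slc26a5, the gene of the motor protein prestin, stood at 29.6, 3.31 and 1.67 CPM against 559.7, 56.6 and 40.7 CPM in the other barcodes. The neuron list summed to 31.3 CPM at P14 and to 589.8 and 598 CPM at P28 (38.5, 1823 and 1745 CPM in the other barcodes), and 5 barcodes held 91.0% and 96.6% of it at P28. Haemoglobin transcripts took 81.2% of the UMIs of 1 member of P28 replicate 1 and 29.8% of 1 member of replicate 2. Macrophage genes were near 0, with a sum of 5.22, 4.97 and 18.4 CPM. The fibrocyte and fibroblast list summed to 87.0, 312 and 1023 CPM in members, against 1790, 2552 and 3646 CPM in the other barcodes. At least 2 of its genes were found in 3, 17 and 29 members. Emilin2, the marker of tympanic border cells, stood at 15.7, 57.2 and 658 CPM in members, against 570, 726 and 857 CPM. What part such barcodes had in the results below was not tested beyond the counts given without them.

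The members were then compared with all other passing barcodes. UMIs were summed per set and library, which gave 3 sums against 3, and edgeR's quasi-likelihood test with the library as a block was run on all genes that passed its filter on low counts. Genes of the rule were left out of every count. Of 13286 genes, 1287 were higher in members (9.69%) and 1525 were lower (11.5%) at a Benjamini-Hochberg adjusted p under 0.05. Without the block the counts were 355 and 152, and without P28 replicate 1 they were 391 and 389. Without the members that had a UMI of Otol1 they were 734 and 720, and each of the 30 genes named next kept its direction and its call. The same held for the 30 genes without the members that had at least 2 neuron genes or more than 1% haemoglobin. Leaving out Otol1 kept the members with neither Fgfr3 nor Otol1, of which 69 of 95 had Slc1a3, Gjb6 and Epcam. Fits without the members with Otol1, here and below, are thus not fits of Fgfr3 members alone.

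Genes of the extracellular matrices of the inner ear were among the 15 that were higher by the largest folds. Tectb, which encodes β-tectorin of the tectorial membrane, stood at 628, 212 and 72.0 CPM in members and 60.2, 11.5 and 4.62 CPM in the other barcodes, which gives 3.88 ± 0.22 on the log2 scale (fold change ± SE from edgeR, here and below) with an adjusted p of 3.53e-05. Otog, the otogelin gene, stood at 385, 636 and 561 CPM against 22.5, 80.8 and 78.1 CPM (log2 fold change 3.33 ± 0.24, adjusted p = 7.51e-05, edgeR). Otogl, the gene of an otogelin-like protein, stood at 317, 396 and 365 CPM against 26.8, 58.0 and 47.9 CPM (log2 fold change 3.12 ± 0.18). For each of the 3 genes the lowest sum of the members was above the highest of the other barcodes.

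Notch pathway genes were also among the leading 15. Jag1, the gene of the ligand that supporting cells keep, stood at 207, 423 and 336 CPM against 19.7, 51.7 and 45.5 CPM (log2 fold change 3.14 ± 0.16, adjusted p = 3.24e-05, edgeR). Lfng, which encodes a glycosyltransferase of Notch receptors, stood at 172, 103 and 126 CPM against 11.1, 16.8 and 15.3 CPM (log2 fold change 3.21 ± 0.25). Both were higher in members in each library and their groups did not overlap.

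Fabp3 stood at 1811, 879 and 699.7 CPM in members and 78.9, 111 and 91.5 CPM in the other barcodes (log2 fold change 3.52 ± 0.30, adjusted p = 0.000136, edgeR). Ppp1r17, which encodes an inhibitor of protein phosphatases, had the largest fold of the genes named, 167, 121 and 48.5 CPM against 5.10, 4.87 and 2.64 CPM (log2 fold change 4.69 ± 0.22, adjusted p = 3.24e-05). Both are genes in which the Fgfr3 members stood above the Otol1 members. Parm1, a mucin-like membrane protein gene, stood at 263, 525 and 485 CPM against 25.4, 69.9 and 59.9 CPM (log2 fold change 3.14 ± 0.16). Rlbp1, the gene of a retinaldehyde-binding protein of glia, stood at 268, 99.4 and 112 CPM against 8.46, 17.6 and 18.2 CPM (log2 fold change 3.34 ± 0.42).

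Cep41 and Mdm1, genes of proteins of centrosomes and microtubules, were higher in members and highest at P14. Cep41 stood at 1064, 151 and 117 CPM against 20.9, 14.4 and 14.4 CPM (log2 fold change 4.09 ± 0.46, adjusted p = 0.000572, edgeR). Mdm1 stood at 459.6, 58.0 and 51.9 CPM against 15.6, 11.7 and 10.9 CPM (log2 fold change 3.27 ± 0.48, adjusted p = 0.00203). The remaining genes higher in members were Dgkb, a diacylglycerol kinase gene (log2 fold change 3.91), Rassf6 (3.54), 6330411D24Rik (3.58) and 4930426D05Rik (3.69). The last was low at P14, with 6.96, 191 and 164 CPM in members against 3.94, 11.5 and 10.7 CPM, and was too low to be tested when barcodes were thinned to 1000 UMIs.

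The genes with the largest folds in the other direction were mostly those of blood, immune and connective tissue cells. S100a8 and S100a9, the calprotectin genes of neutrophils, and Bglap, the osteocalcin gene of bone, had 0 UMIs in the members of all 3 libraries. In the other barcodes S100a8 stood at 389, 35.4 and 469.9 CPM, S100a9 at 349, 36.0 and 382 CPM and Bglap at 38.5, 4.19 and 404 CPM. All 3 were lowest in P28 replicate 1, and Bglap was mostly in P28 replicate 2. Against 3 UMIs over the summed members, S100a8 was at least 212-fold lower, S100a9 at least 178-fold lower and Bglap at least 143-fold lower. Without P28 replicate 2 these bounds fell to 68.7-fold, 63.5-fold and 7.11-fold, and for Bglap most of the bound thus rests on that library. Lyz2, the lysozyme gene of myeloid cells, stood at 0, 1.66 and 8.37 CPM in members against 322, 137 and 144 CPM (log2 fold change -5.86 ± 0.49, adjusted p = 0.000133, edgeR). Tyrobp, Fcer1g, C1qa, C1qb and C1qc, genes of macrophages, fell in the same way, with log2 fold changes of -5.49, -4.40, -4.94, -5.48 and -5.34. Slc26a5 was lower by a log2 fold change of -4.20, and Ocm, a gene of the same cells, was part of the rule. Hist1h2ap, a histone H2A gene (-4.41), stood at 20.9, 0 and 0 CPM against 436, 1.07 and 5.73 CPM, so that its fold rests on P14, and without that library it was not called. Bglap was not called by DESeq2. Car3 (carbonic anhydrase 3, -3.98), Trf (transferrin, -3.45), Ighm (immunoglobulin heavy chain, -3.35) and Col3a1 (collagen III, -3.33) completed the 15. Without the block the calls of S100a8, S100a9, Bglap, Hist1h2ap, Slc26a5, Trf and Ighm, and of Tectb, 4930426D05Rik and Mdm1 among the higher genes, were lost. With at least 10 UMIs required in every sum, 0 of the 15 lower genes and 14 of the 15 higher genes could be tested.

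**Figure D3:**
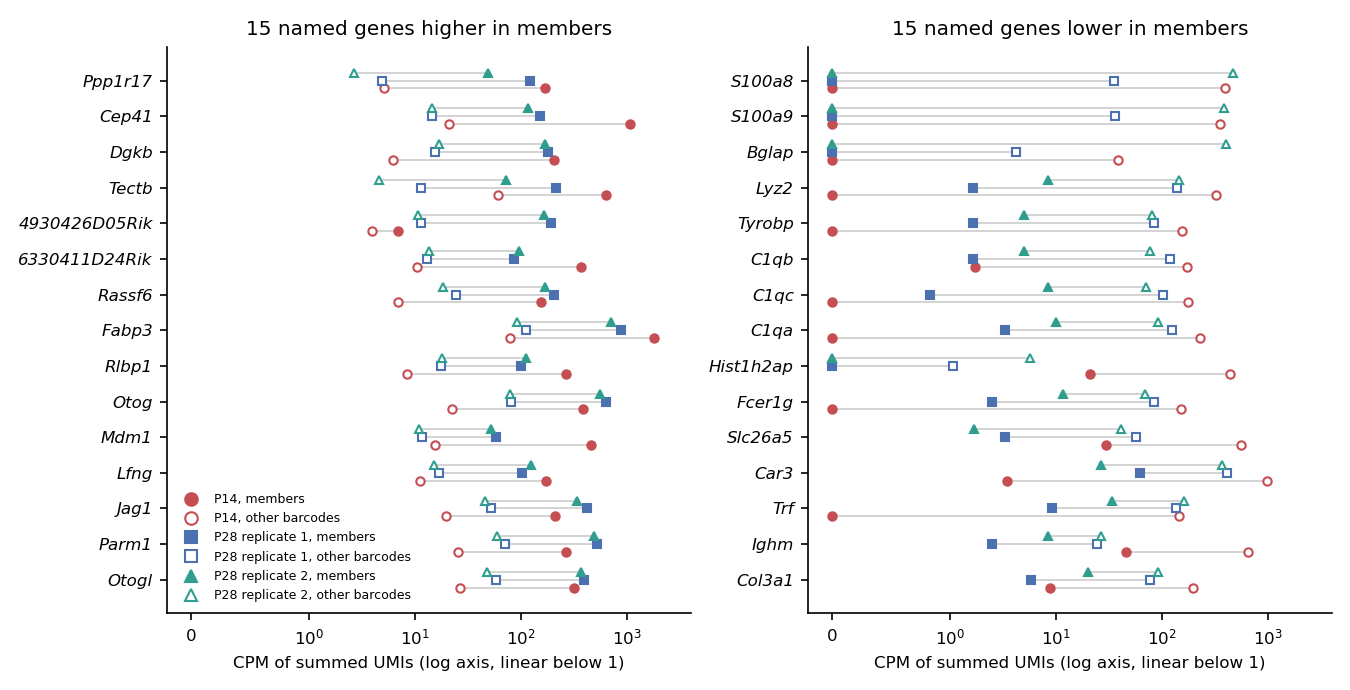
CPM of summed UMIs (log axis, linear below 1) of the 15 genes with the largest log2 fold change in each direction between members (filled) and all other passing barcodes (open), joined by a line for each library. The filled symbols lie right of the open ones for each gene on the left and left of them for each gene on the right.

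Lists of genes with known roles were read against these shares. Of the genes named above or called in these lists against all other barcodes, 34 kept their call without the block and 70 did not. Without P28 replicate 1, 77 kept it and 27 did not. In the list of Notch and supporting cell regulators, 16 of the 22 genes tested were higher in members and 0 were lower, with a median log2 fold change of 1.15, beside -0.05 over all genes tested. Sox2, the transcription factor gene of the prosensory domain that supporting cells keep, stood at 211, 309 and 224 CPM against 31.5, 52.2 and 46.1 CPM (log2 fold change 2.58 ± 0.16, adjusted p = 5.27e-05, edgeR). Notch targets of the Hes and Hey families rose, Hes1 by 1.84, Hey1 by 1.61, Hey2 by 2.04 and Heyl by 1.96 on the log2 scale. Notch1, the receptor gene, rose by 1.13, whereas Notch2 (-0.54, adjusted p = 0.125) and the ligand gene Jag2 (-0.83, adjusted p = 0.118) did not pass the test. Sox9, Sox10, Gata3, Id1, Id2, Lgr5, Lgr6 and Cdkn1b were the other genes of the list that were higher, besides Jag1 and Lfng. In Fgfr3 members alone Lgr6 (0, 10.9 and 4.80 CPM) was no higher than in the other barcodes (5.98, 22.4 and 25.1 CPM). Lgr5 (34.3, 18.2 and 19.2 CPM) was above the other barcodes (10.4, 19.4 and 21.2 CPM) at P14 only. Of the 22 genes, 12 were higher without the members with Otol1, 7 without the block and 10 without P28 replicate 1.

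Of 14 tested markers of Deiters and pillar cells that the rule did not use, 9 were higher and 1 was lower, with a median log2 fold change of 0.83. S100a1, a calcium-binding protein gene, stood at 16735, 17143 and 10886 CPM against 10928, 9001 and 6269.8 CPM (log2 fold change 0.83 ± 0.10, adjusted p = 0.000773, edgeR). Emid1 stood at 129, 29.8 and 51.9 CPM against 8.31, 6.88 and 7.18 CPM (log2 fold change 3.03 ± 0.33). Gjb6, the gene of connexin 30, rose by 1.17, whereas Gjb2, the gene of connexin 26, did not pass the test (0.42, adjusted p = 0.104). Sparcl1, a matrix protein gene of glia, was lower (-2.52). The keratin genes Krt8, at 20.9, 15.7 and 10.0 CPM, and Krt18, at 34.8, 30.6 and 3.35 CPM, used as pillar cell markers, did not pass the test. S100b stood at 292, 139 and 141 CPM against 78.2, 217 and 409 CPM, above the other barcodes at P14 and below them in both P28 libraries. Without the block 4 of the 14 were higher. Gfap and Hes5 were too low to be tested.

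Since the members were deeper, shares of barcodes with a UMI were also read after thinning to 1000 UMIs, which left out 4, 4 and 1 members. Sox2 was then found in 20.0%, 24.0% and 20.8% of members and in 1.77%, 3.62% and 3.28% of the other barcodes. Unthinned, the shares were 62.7%, 77.4% and 56.7% against 6.30%, 9.08% and 7.08%. Jag1 was found after thinning in 14.5%, 38.8% and 38.5% of members and in 2.01%, 4.44% and 3.90% of the others. For both genes the exact binomial 95% intervals of members and other barcodes did not overlap in any library.

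The tectorial and basilar matrix list went in both directions, with 3 of 15 genes higher (Tectb, Otog and Otogl), 5 lower and a median of -0.45. The lower ones were the collagen genes Col2a1 (-2.30), Col4a3 (-2.99), Col4a4 (-2.38) and Col11a1 (-1.25), and Emilin2 (-2.71), also the marker of the tympanic border cells. Epyc, the epiphycan gene, stood at 1679.9, 1181 and 669.5 CPM against 5379.9, 1251 and 949.8 CPM and did not pass the test.

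In the gap junction and potassium list, 4 of 10 genes were higher and 1 lower, with a median of 0.44. Kcnj10 and Kcnj16, genes of inwardly rectifying potassium channels, stood at 374, 207 and 166 CPM against 31.6, 34.8 and 56.6 CPM (log2 fold change 2.62 ± 0.32) and at 811, 664 and 447 CPM against 305, 128 and 111 CPM (1.98 ± 0.20). Slc12a7, the gene of the potassium-chloride cotransporter KCC4 of Deiters cells, stood at 413, 1102 and 929 CPM against 77.1, 259.9 and 219 CPM (log2 fold change 2.24 ± 0.14, adjusted p = 5.27e-05, edgeR). Atp1b2, a gene of a β subunit of the sodium pump, was lower (-0.54).

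The cytoskeleton list had 4 of 20 genes higher, Tuba1a, Tubb2a and Tubb2b of tubulin and Vim, and 3 lower, Tubb4a, Tubb5 and the microtubule-associated Map1b. Tuba1a stood at 1405, 487 and 363 CPM against 296, 265 and 239 CPM (log2 fold change 1.29 ± 0.27, adjusted p = 0.011, edgeR). Vim stood at 178, 479 and 388 CPM against 92.6, 139 and 132 CPM (log2 fold change 1.50 ± 0.19, adjusted p = 0.00107). The other 13 genes did not pass the test, and the median of the list was 0.21.

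Among FGF pathway genes, Spry2, the gene of a feedback inhibitor of FGF receptors, stood at 141, 523 and 333 CPM against 37.8, 107 and 86.6 CPM (log2 fold change 2.11 ± 0.16, adjusted p = 9.71e-05, edgeR), and Dusp6, a phosphatase gene that FGF signals induce, rose by 0.75 (adjusted p = 0.0486). Fgfr1 fell by a log2 fold change of -0.81, and the other 9 of 12 genes did not pass the test (median -0.40). Of 12 genes of S100 proteins and calcium buffers, S100a1, S100a6 and S100a13 were higher and Pvalb, Calb1 and S100a16 lower (median 0.12). Retinoid genes were lower in 3 of 7 cases (Aldh1a1, Aldh1a2 and Dhrs3) and higher in 0, with a median of -0.63. Of 15 genes of glutamate handling and energy metabolism, Slc1a3 was higher and Ckmt1 and Pygm were lower (median -0.23). In Fgfr3 members alone Slc1a3 stood at 7.63, 329 and 259 CPM, below the 136, 440 and 460 CPM of the other barcodes. Otof and Slc17a8 of the inner hair cell list were higher in members (log2 fold changes 1.71 and 1.85), but their direction turned in 3 alternatives. With at most 3000 genes and 15000 UMIs they were at -0.16 and -1.04, and with at least 4 markers at -0.46 and -0.48, without passing the test. Without the members that held at least 2 genes of 1 other cell type list, a step that takes out each member with 2 inner hair cell genes by its own rule, both had 0 UMIs in members. Among the other cell type lists, 4 of 4 genes of neurons, of glia, of macrophages and of B cells were lower, 3 of 4 of fibrocytes, 5 of 8 of outer hair cells and 2 of 2 of strial intermediate cells. The single markers of the Reissner membrane, of the tympanic border and of spindle and root cells were lower as well, 0 of 4 haemoglobin genes passed the test, and the 2 strial marginal genes were too low to be tested.

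**Figure D4:**
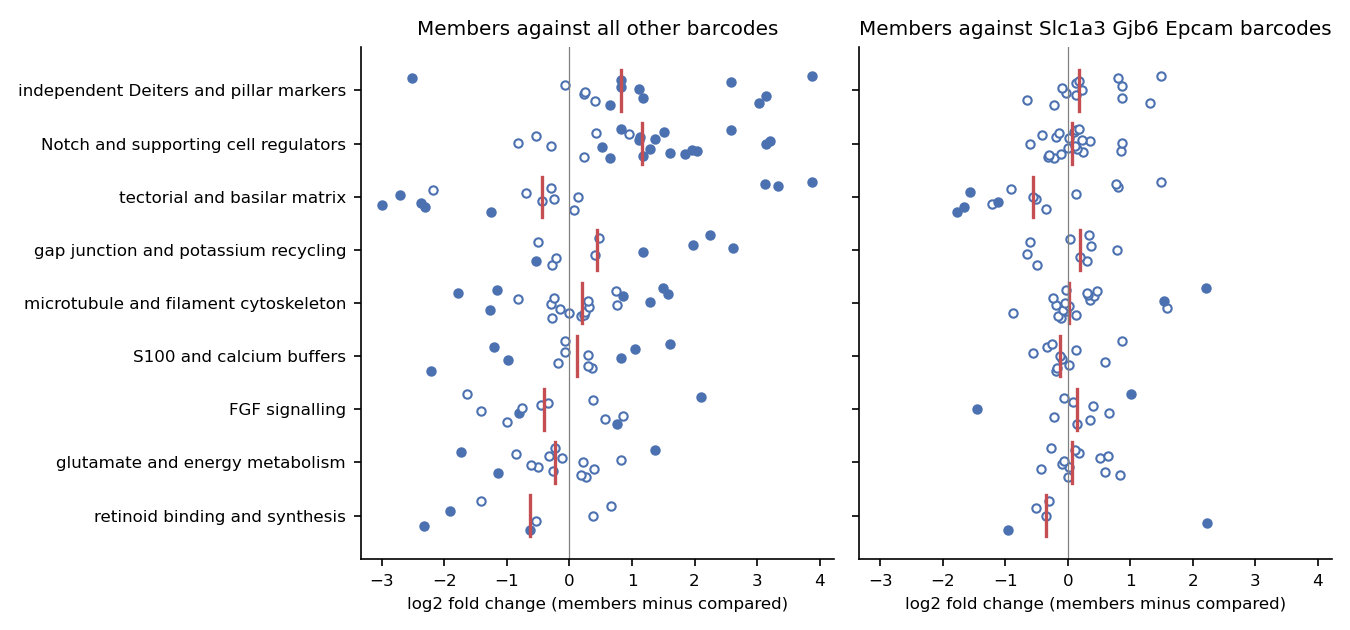
Log2 fold change of the genes of 9 lists (points; filled where the adjusted p of edgeR was under 0.05) and the median of each list (red line), for members against all other barcodes on the left and against Slc1a3 Gjb6 Epcam barcodes on the right. The Notch and supporting cell list lies mostly right of 0 against all other barcodes and around 0 against the Slc1a3 Gjb6 Epcam barcodes.

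A closer comparison was made with barcodes that had a UMI of each of Slc1a3, Gjb6 and Epcam and were not members. These transcripts mark supporting cells around the inner hair cells, and 54, 361 and 353 barcodes met this rule. Of the 289 members, 172 also had these 3 transcripts. Of 9258 genes, 101 were higher in members (1.09%) and 53 lower (0.572%) by edgeR's quasi-likelihood test with the library as a block. Without the block 2 and 1 genes were called, and the counts with 1 library left out ran from 31 to 353 and from 22 to 217, the lowest without P28 replicate 1 and the highest without P14.

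Fabp3 had the largest fold, 1811, 879 and 699.7 CPM in members against 55.7, 98.2 and 68.0 CPM (log2 fold change 3.69 ± 0.30, adjusted p = 0.000329, edgeR), and it is 1 of the 2 genes called without the block. Vim, again a gene of higher level in Fgfr3 members, stood at 178, 479 and 388 CPM against 13.9, 99.8 and 121 CPM (log2 fold change 2.21 ± 0.25), Parm1 at 263, 525 and 485 CPM against 48.7, 121 and 114 CPM (2.16 ± 0.16) and Ppp1r17 at 167, 121 and 48.5 CPM against 16.2, 12.7 and 5.91 CPM (3.20 ± 0.21). Cep41 (2.55), Mdm1 (2.58) and 4930426D05Rik (2.21) were again called higher. The last stood at 6.96, 191 and 164 CPM against 6.96, 35.2 and 37.9 CPM, with no difference at P14 in these digits. At P14 it met the rule of 1 direction in all libraries only by 6.9635 against 6.9632 CPM. Cep41 and Mdm1 were not called by DESeq2 or with mitochondrial UMIs at most 10%, and 4930426D05Rik was not called without P28 replicate 1. Snap25, a gene of synaptic vesicle fusion in neurons, also stood among the 8, at 5.22, 258 and 313 CPM against 2.32, 26.9 and 22.5 CPM (log2 fold change 3.46 ± 0.24). Without the members that held at least 2 neuron genes or more than 1% haemoglobin its log2 fold change was -1.06 and it was no longer called. Snap25 is 1 of the neuron genes by which these members were removed, and the compared barcodes were not filtered, so its turn follows from the step. Nefl, another neuron gene that was higher in members, was called lower with at least 4 markers (-3.52, adjusted p = 0.0068, edgeR). Snap25 was too low to be tested there.

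Lower in members were Car3 (-3.37), Ucma, a gene of a cartilage matrix protein (-3.24), Frzb, which encodes a secreted Wnt inhibitor (-2.58), and Lgals1, the galectin-1 gene. Lgals1 stood at 1393, 1330.3 and 609 CPM against 9987, 4249 and 2417 CPM (log2 fold change -2.18 ± 0.21, adjusted p = 0.0011, edgeR). Wfdc2 (-2.07), Ptgds, the prostaglandin D synthase gene (-1.67), and the collagen genes Col11a1 (-1.78) and Col2a1 (-1.65) were the others. Col2a1 stood at 111, 6.63 and 10.0 CPM against 471, 10.3 and 14.2 CPM, so that its level was mostly at P14, and it was not called by DESeq2, without P14, without P28 replicate 1 or without the neuron and haemoglobin members. In the last of these Wfdc2 was not called either. Of the fixed lists, 4 of 13 tectorial and basilar matrix genes were lower (Col2a1, Col9a1, Col11a1 and Epyc) and 0 higher. In the cytoskeleton list Tuba1a (1405, 487 and 363 CPM against 269, 184 and 189.9 CPM, log2 fold change 1.54 ± 0.24) and Vim were higher. Aldh1a3, a gene of retinoic acid synthesis, was higher (2.23) and Aldh1a1 lower (-0.96), and Spry2 was higher (1.01).

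None of the 13 tested independent markers and none of the 20 tested Notch and supporting cell regulators was called in this comparison by edgeR, with medians of 0.19 and 0.06 beside -0.00321 over all genes tested. DESeq2 called 1 and 0, and edgeR called 2 and 1 without the members with Otol1. Jag1 stood at 207, 423 and 336 CPM against 83.6, 205 and 253 CPM (0.87, adjusted p = 0.0541), Sox2 at 211, 309 and 224 CPM against 132, 259 and 293 CPM (0.13, adjusted p = 0.903) and Tectb at 628, 212 and 72.0 CPM against 494, 35.6 and 20.1 CPM (1.48, adjusted p = 0.101). At an unadjusted p under 0.05, 5 of the independent markers and 3 of the regulators passed. In the lists of S100 proteins and calcium buffers (11 tested), of glutamate and energy metabolism (12 tested) and of gap junctions and potassium (9 tested) edgeR and DESeq2 each called 0 genes. At an unadjusted p under 0.05, 2, 3 and 5 genes of these lists passed with edgeR. The share of all genes tested that passed at this unadjusted p is not given, so nothing is read from the unadjusted counts of any list.

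The other comparison was with 182, 263 and 226 barcodes that had Aqp4 and Epcam, transcripts of the epithelium lateral to the organ of Corti, and were in neither of the sets above. Of 9725 genes, 983 were higher in members (10.1%) and 985 lower (10.1%). Without P28 replicate 1 the counts were 359 and 257, without the block 438 and 207, and without the members with Otol1 588 and 435. Each of the 16 genes named next kept its call in these 3 fits, but with at least 10 UMIs required in every sum only 1 of 8 higher and 1 of 8 lower genes could be tested.

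The transcription factor genes Rorb and Sall1 were among those higher in members. Rorb, of a retinoid-related orphan receptor, stood at 1454, 880.5 and 837 CPM against 7.73, 23.0 and 50.9 CPM (log2 fold change 5.14 ± 0.54, adjusted p = 0.000602, edgeR). Sall1 stood at 169, 187 and 159 CPM against 0.594, 4.39 and 7.90 CPM (log2 fold change 5.14 ± 0.38). Atp2a3, a calcium pump gene of the endoplasmic reticulum, stood at 233, 273 and 136 CPM against 0.594, 5.48 and 16.7 CPM (log2 fold change 4.71 ± 0.57), and Tmem229a at 364, 422 and 413 CPM against 2.38, 7.67 and 7.90 CPM (5.80 ± 0.28). The groups did not overlap for any of the 4. 6330411D24Rik (6.77), Dgkb (6.05), Rlbp1 (5.01) and Lfng (4.52) were the other 4.

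Lower in members were Car3 (-5.63), Ucma (-4.75), Frzb (-4.33), Clic6 (-4.30), Rubie (-4.21), Vldlr (-3.65), Lgals1 and Bmp4. Lgals1 stood at 1393, 1330.3 and 609 CPM against 24099, 11542 and 5848 CPM (log2 fold change -3.78 ± 0.24, adjusted p = 8.68e-05, edgeR). Bmp4, the gene of the growth factor made lateral to the hair cells, stood at 5.22, 8.28 and 35.2 CPM against 352, 166 and 120.3 CPM (log2 fold change -3.97 ± 0.57). Among the lists, Vim was higher (3.98) and so were Tuba1a (1.80), Lgr6 (4.24), Fgf10 (3.34), Emid1 (4.76) and Tectb (3.79). The keratin genes Krt8 (-1.22), Krt18 (-1.50) and Krt19 (-1.83) and S100a1 (-1.45) were lower. Of 21 Notch and supporting cell regulators 3 were higher and 6 lower, and of 14 independent markers 4 were higher and 5 lower. In the other lists, higher and lower genes numbered 4 and 7 of 13 for the tectorial and basilar matrix, 3 and 3 of 10 for gap junctions and potassium, 3 and 4 of 19 for the cytoskeleton, 4 and 4 of 11 for S100 proteins and calcium buffers, 4 and 2 of 9 for FGF signalling, 2 and 2 of 14 for glutamate and energy, and 1 and 3 of 5 for retinoids. Slc1a3 counts among the higher genes of its list, but barcodes with Slc1a3, Gjb6 and Epcam had been taken out of the compared set, so its low level there was set by the rule and nothing is read from it. All 7 tested genes of the outer hair cell list and all 4 of the inner hair cell list were higher in members too. Without the members that held at least 2 genes of 1 other cell type list, Calb2 (-2.80), Cib2 (-3.42) and Pcp4 (-4.29) were called lower by edgeR. These genes belong to the lists by which that step removes members, while the compared barcodes were not filtered, so these directions are set by the step and nothing is read from them. Calm2, which is on none of those lists, also turned in that fit and was called lower (-0.83, adjusted p = 0.0169, edgeR). With at most 3000 genes and 15000 UMIs Cib2 stood at -0.26 and Calm2 at -0.0891, and neither was called. With at least 4 markers Calm2 stood at -0.26 and was not called.

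Levels in members were also set side by side between the ages, without a test, since there was 1 library at P14. A level was taken as apart when the exact Poisson 95% interval at P14 overlapped neither P28 interval, and the gene had 200 CPM or more at the age of the higher level. Of 809 genes considered, 327 were apart with P14 above (40.4%) and 123 with P14 below (15.2%). Since the share of members with a UMI of Otol1 was lower at P28, the same was read in Fgfr3 members alone. There 204 of the 327 and 69 of the 123 were apart in the same direction. Fgfr3 members are part of the summed members (262201 of 574425 UMIs at P14), so this agreement is partly built in. The shares of all 809 genes that were apart in Fgfr3 members or in the other barcodes are not given. In the other barcodes 199 of the 327 and 94 of the 123 were, so these differences were in part shared with the rest of the tissue.

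Tubb4b, Stmn1 and Mdm1, genes of microtubule proteins, were among the 8 genes with the largest excess at P14. Tubb4b, a β-tubulin gene, stood at 1396, 152 and 139 CPM in members, 1911, 103 and 101 CPM in Fgfr3 members and 395, 138 and 136 CPM in the other barcodes. Stmn1, the gene of the tubulin-binding protein stathmin, stood at 2054, 276 and 254 CPM in members, 3329.5, 363 and 413 CPM in Fgfr3 members and 1019, 192 and 157 CPM in the other barcodes. Mdm1 stood at 459.6, 58.0 and 51.9 CPM in members and 923, 111 and 129.6 CPM in Fgfr3 members, against 15.6, 11.7 and 10.9 CPM in the other barcodes. In all 3 genes the P14 library was high and both P28 libraries lay close together in members, and in the other barcodes Tubb4b and Stmn1 were high at P14 as well. Of the fixed list, Tuba1a was lower at P28 as well, 1405, 487 and 363 CPM in members and 2441, 769.8 and 461 CPM in Fgfr3 members, and Tubb2a was at 226, 82.8 and 82.0 CPM in members. Vim went the other way, with 178, 479 and 388 CPM in members and 309, 842 and 763 CPM in Fgfr3 members. In the other barcodes Tuba1a stood at 296, 265 and 239 CPM, Tubb2a at 129, 51.2 and 42.9 CPM and Vim at 92.6, 139 and 132 CPM, in the same order of the ages.

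Of the other genes highest at P14, Umodl1 stood at 468, 7.45 and 0 CPM in members and 961, 10.9 and 0 CPM in Fgfr3 members, and its level in the other barcodes was 10.4, 0.470 and 0.308 CPM. Col9a1, a gene of collagen IX, was at 343, 9.94 and 10.0 CPM in members and 441, 15.8 and 15.4 CPM in the others. Mia, a gene of a protein secreted by cartilage, stood at 2778, 280 and 121 CPM in members, but at only 526, 49.0 and 67.2 CPM in Fgfr3 members, and at 3157, 175 and 151 CPM in the other barcodes. Ano1, a calcium-activated chloride channel gene, stood at 245, 9.94 and 1.67 CPM in members and had 0 UMIs in the Fgfr3 members of each library, where 3 UMIs correspond to 11.4, 5.45 and 14.4 CPM. Its P14 level came from the other members. Xist was the other gene of the 8 and is given above.

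Among the fixed lists, Tectb was lower at P28, 628, 212 and 72.0 CPM in members and 1220.4, 390.4 and 101 CPM in Fgfr3 members. Jag1 was higher at P28 in members (207, 423 and 336 CPM), but its P14 and P28 intervals were not apart in Fgfr3 members (267, 534 and 317 CPM). Slc12a7 was lower at P14 in both, 413, 1102 and 929 CPM in members and 328, 746 and 624 CPM in Fgfr3 members, and so was Spry2, 141, 523 and 333 CPM and 179, 822 and 494 CPM. Kcnj10 was higher at P14, 374, 207 and 166 CPM in members and 515, 214 and 168 CPM in Fgfr3 members. In the other barcodes the order of the ages was the same for Tectb (60.2, 11.5 and 4.62 CPM), Jag1 (19.7, 51.7 and 45.5 CPM), Slc12a7 (77.1, 259.9 and 219 CPM) and Spry2 (37.8, 107 and 86.6 CPM), and was not for Kcnj10 (31.6, 34.8 and 56.6 CPM). Cdkn1b, a cell cycle inhibitor gene that keeps supporting cells from dividing, was lower at P28, 641, 210.4 and 189 CPM in members and 641, 218 and 221 CPM in Fgfr3 members, and in the other barcodes it stood at 328, 151 and 152 CPM. Ldhb and Eno1, genes of energy metabolism, were higher at P14 as well, Ldhb at 588, 199.6 and 147 CPM and Eno1 at 268, 41.4 and 41.8 CPM in members. In the other barcodes Eno1 was lower at P28 too (291, 52.2 and 61.5 CPM), whereas Ldhb stood at 257, 226 and 221 CPM.

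The genes lowest at P14 were Meg3, Snap25, Coch, Ifitm3, Otor, Cavin2, Emcn and Fxyd6. Coch, the cochlin gene of fibrocytes, stood at 5.22, 171 and 733 CPM in members, and Emcn, the endomucin gene of capillary endothelium, at 1.74, 60.5 and 669.5 CPM. In the other barcodes the same genes were abundant, Coch at 699.5, 1466 and 1895 CPM and Emcn at 129, 830.2 and 839 CPM. Otor stood at 0, 74.5 and 423 CPM and Cavin2 at 0, 71.2 and 452 CPM, so that both had 0 UMIs at P14, where 3 UMIs correspond to 5.22 CPM. In 7 of the 8 genes P28 replicate 2 stood above replicate 1 in members, by the widest margin for Emcn. The exception was Fxyd6, a gene of a regulator of the sodium pump, at 71.4, 393 and 368 CPM in members, 34.3, 332 and 317 CPM in Fgfr3 members and 319.9, 525 and 512 CPM in the other barcodes. Meg3 (0, 214 and 345 CPM) and Snap25 (5.22, 258 and 313 CPM) were low in the Fgfr3 members (0, 85.3 and 14.4 CPM and 0, 52.7 and 9.60 CPM). Of the fixed lists, Emilin2 was also lower at P14, at 15.7, 57.2 and 658 CPM in members and 26.7, 99.9 and 562 CPM in Fgfr3 members. In the other barcodes it stood at 570, 726 and 857 CPM. The part of RNA from other cells in these levels was not tested.

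**Figure D5:**
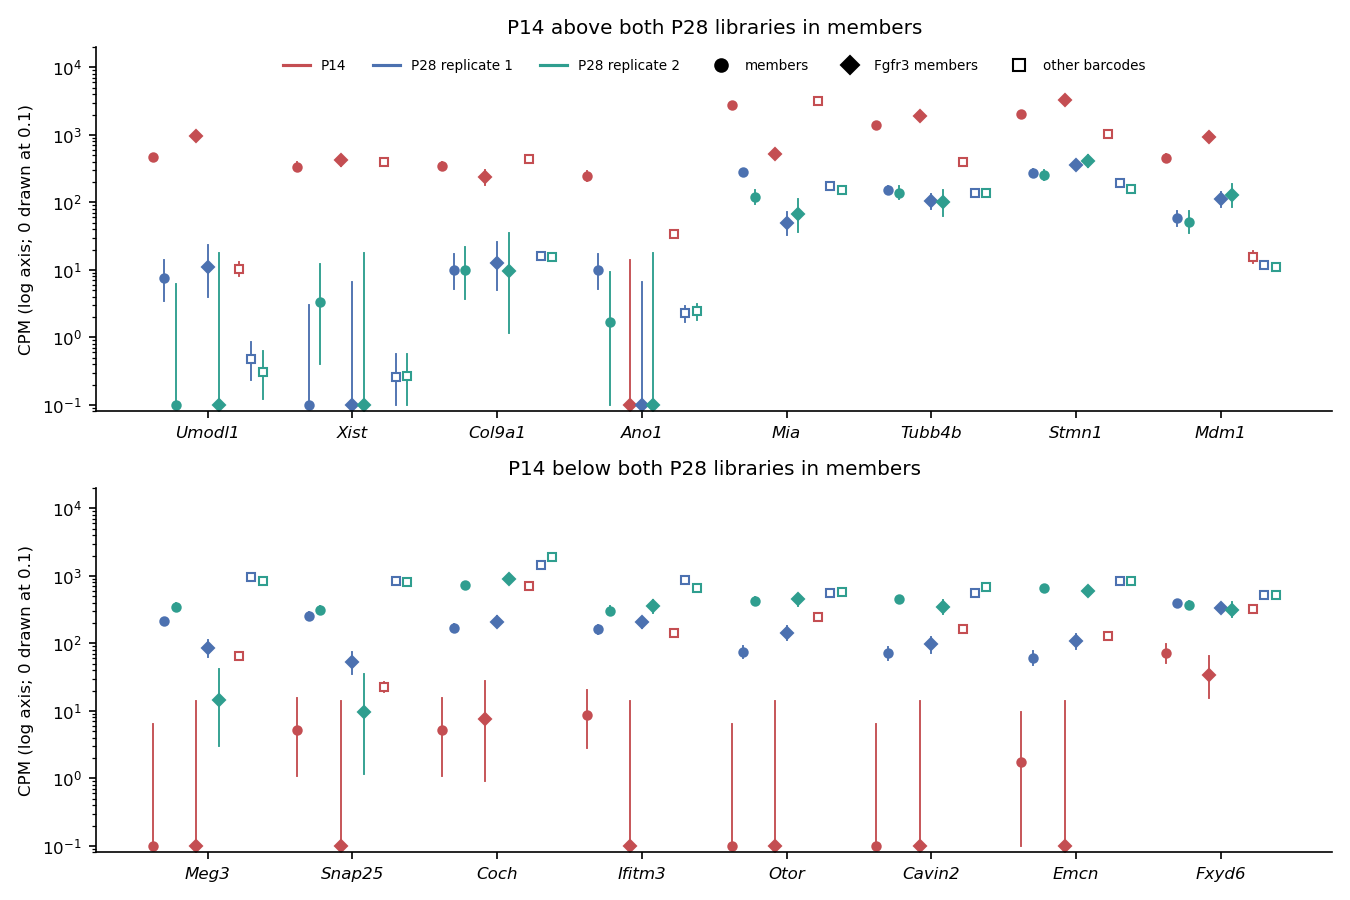
CPM of summed UMIs (log axis; 0 drawn at 0.1) with exact Poisson 95% intervals in members (circles), Fgfr3 members (diamonds) and all other barcodes (open squares), with 1 colour per library, for the 8 genes with the largest P14 excess in members (top) and the 8 with the largest P14 deficit (bottom). Tubb4b, Stmn1 and Mdm1 lie highest at P14 in members and in Fgfr3 members, and Ano1 is at 0 in the Fgfr3 members.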

How the data were processed

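Libraries were prepared with 10x Chromium 3′ v3.1 reagents. The authors counted reads with Cell Ranger, version 5.0.1 by the file headers and 6.0.1 by the submitters' processing notes, against mm10. The deposited values are raw UMI counts of 32285 genes per barcode, not normalized. Doublets were not removed and no doublet caller was run.

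UMIs were summed per set and library, and CPM scale a sum to 1000000 UMIs. Tests used edgeR 4.0.16 (R 4.3.3; TMM, filterByExpr, quasi-likelihood test, library as block, Benjamini-Hochberg over all genes tested), after a test on simulated data. Cells were not used as replicates. With the library as block, differences in level between the 3 pooled libraries are taken out. The p-values then measure the spread, over these 3 libraries, of the difference between members and the compared set. Poisson and binomial intervals (95%) are exact (scipy 1.17.1). Both sums of a library come from 1 preparation, and their deviations from the set means correlated at 0.28 to 0.61 over genes. DESeq2 1.42.0, other limits on genes, mitochondrial UMIs, markers and Ocm, thinning to 1000 UMIs and leaving out libraries or members were tried.

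The genes named were those with the largest log2 fold change at an adjusted p under 0.05, with 1 direction in all 3 libraries and a mean of 100 CPM or more in the higher set (15 in each direction against all other barcodes and 8 against each other set). Between ages they were the 8 with the largest ratio of CPM + 10 at P14 to the nearer P28 library. Mitochondrial and ribosomal protein genes were left out, and between ages those of haemoglobin. Some list genes are not reported here, and list counts are without them. The members and all lists were chosen with earlier results of these data known.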

Additional observations from a re-analysis of the deposited data

Results flagged for a closer look

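In 6 genes of the fixed lists the members lay on one side of the other barcodes at P14 and on the other side in both P28 libraries, with exact Poisson 95% intervals of the sums that were apart in each of the 3 libraries. Ratios are given as the log2 of (CPM + 10) in members over (CPM + 10) in the others, which is nearer 0 than the ratio of the CPM themselves. The difference between the ages was not tested, since there was 1 library at P14. S100b, a calcium-binding protein gene, had a ratio of 1.78 at P14, with 292 CPM in members and 78.2 CPM in the others, whereas at P28 members had 139 and 141 CPM and the others 217 and 409 CPM. Map4, a gene of a microtubule-associated protein, had a ratio of 1.94 at P14 (118 against 23.5 CPM) and was lower in members at P28 (24.0 and 33.5 CPM against 77.9 and 90.1 CPM). For Aldh1a3 the ratio at P14 was 1.37 (48.7 against 12.7 CPM) and members were again lower at P28 (34.8 and 26.8 CPM against 94.6 and 84.8 CPM). Ckb, the creatine kinase B gene, and Pkm, the pyruvate kinase gene, had ratios of 0.768 and 0.692 at P14. Ikzf2, the gene of the transcription factor Helios of outer hair cells, went the other way, with a ratio of -0.762 at P14 (117 against 205 CPM) and higher levels in members at P28 (161 and 152 CPM against 100.2 and 78.3 CPM).

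Barcodes above the mitochondrial limit were not used. Of these, 18 of 493 at P14, 66 of 5899 in P28 replicate 1 and 96 of 10606 in P28 replicate 2 met the marker and Ocm rules, with a median of 1447, 2000.5 and 1398 UMIs. Ceacam16 stood there at 1376, 8997 and 7969 CPM, Fgfr3 at 288, 512 and 645 CPM and Jag1 at 352, 1106 and 968 CPM. In the same barcodes Parm1 stood at 128, 1570.1 and 1400.1 CPM and Otog at 480.1, 935 and 1331 CPM. S100a1 (5602, 9132 and 9351 CPM) stood below the members in each library. Fabp3 (192, 917 and 386 CPM) was below the members at P14 and in P28 replicate 2. Sox2 (128, 229 and 190 CPM) had lower values than in members, but on few UMIs and without counting intervals, so it is not read as apart. Mitochondrial UMIs, high in these barcodes by rule, are part of the sum to which CPM are scaled. What part damaged cells had in this was not tested.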

How the results depend on the processing

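Without the library as a replicate block, 355 and 152 genes were higher and lower in members than in all other barcodes (1287 and 1525 with it), 2 and 1 against Slc1a3 Gjb6 Epcam barcodes (101 and 53) and 438 and 207 against Aqp4 Epcam barcodes (983 and 985). Counts with 1 library left out ran from 391 to 1522 and from 389 to 1883 against all other barcodes, from 31 to 353 and from 22 to 217 against Slc1a3 Gjb6 Epcam barcodes, and from 359 to 1021 and from 257 to 839 against Aqp4 Epcam barcodes. Each lowest count was without P28 replicate 1.

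Against all other barcodes the counts were 768 and 508 with at least 10 UMIs in every sum, 824 and 897 with mitochondrial UMIs at most 10%, 681 and 994 with at least 4 markers, 563 and 700 after thinning to 1000 UMIs, and 734 and 720 without the members with Otol1. Without members that held at least 2 genes of 1 other cell type list, 618 were higher. Against Slc1a3 Gjb6 Epcam barcodes they were 58 and 33 with DESeq2, 387 and 248 with no filter on low counts, 41 genes higher with at least 10 UMIs in every sum, 85 lower with at most 3000 genes and 15000 UMIs, 52 and 35 with mitochondrial UMIs at most 10%, 212 and 207 with at least 4 markers, 22 and 24 after thinning, and 156 and 188 without mixed members. Against Aqp4 Epcam barcodes they were 581 and 508 with DESeq2, 1529 lower with no filter, 528 and 460 with at most 3000 genes and 15000 UMIs, 624 and 529 with at least 4 markers, 317 and 229 after thinning, 422 and 426 without mixed members, and 588 and 435 without the members with Otol1. Fewer barcodes entered most of these fits, and the cause was not tested.

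The share of members was 3.43%, 2.32% and 1.37% with Ocm below 0.1% of the UMIs, close to the 3.55%, 2.35% and 1.37% reported, and moved more with most other limits on barcodes. It was 2.07%, 1.45% and 1.095% (in library order) with at most 3000 genes and 15000 UMIs, 1.62%, 0.637% and 0.311% with at least 4 markers, 1.00%, 0.273% and 0.331% after thinning, 4.97%, 3.75% and 2.42% with at least 2000 UMIs, 0.842%, 0.672% and 0.396% without mixed members, and 1.38%, 1.93% and 1.08% without the members with Otol1. With mitochondrial UMIs at most 10% it was 3.57% at P14 and 3.00% and 2.00% at P28. Genes with P14 above and below both P28 libraries in members numbered 189 and 51 with at most 3000 genes and 15000 UMIs, 192 and 73 with at least 4 markers, 86 and 26 after thinning and 136 and 46 without mixed members.

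Single genes changed sign in 23 cases, here as log2 fold changes. Without mixed members, or neuron and haemoglobin members, genes of the lists used to remove them are lowered by the step itself. Against all other barcodes Otof was at -0.16, -0.46 and -13.26, and Slc17a8 at -1.04, -0.48 and -12.04, with at most 3000 genes and 15000 UMIs, with at least 4 markers and without mixed members. The last value of each was fitted to 0 UMIs in members, so it gives a direction and no size. With mitochondrial UMIs at most 10%, Pcp4 was at 0.22 and Tmc1 at 0.15. Against Slc1a3 Gjb6 Epcam barcodes Nefl was at -3.52 with at least 4 markers, and without neuron and haemoglobin members Nefl was at -1.27 and Snap25 at -1.06. Against Aqp4 Epcam barcodes, without mixed members, Calb2 was at -2.80, Calm2 at -0.83, Cib2 at -3.42, Emilin2 at -0.0917, Pcp4 at -4.29 and Sparcl1 at -1.05. With at most 3000 genes and 15000 UMIs Calm2 was at -0.0891 and Cib2 at -0.26, and with at least 4 markers Calm2 was at -0.26 and Snap25 at -1.45. Without neuron and haemoglobin members Nefl was at -0.69 and Snap25 at -2.43.

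The alternatives without the Otol1 members and without neuron and haemoglobin members were chosen after seeing the data. With 1 library at P14, 59 members there and 3 libraries in all, low genes could not be tested, and age, sex and library cannot be told apart.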
